A study of Mus musculus with 20 samples.

Results

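Ketone body use in the brain was followed through 7 genes of 19463 in the deposited table, chosen with earlier results of these data known. They were picked by name as those that carry ketone bodies into brain cells, burn them in mitochondria, or admit long-chain fatty acids to the mitochondrion. They were the monocarboxylate transporters Slc16a1 and Slc16a7, the ketone-oxidizing enzymes Bdh1, Oxct1 and Acat1, and the carnitine palmitoyltransferases Cpt1a and Cpt1c. All 7 were above the limit on low values in every comparison. RNA came from whole brains of male C57BL/6J mice, with 5 mice in each of 4 groups: WT at P21, Katnal2-KO at P21, WT at P70 and Katnal2-KO at P70, 20 mice in all. P21 is 3 weeks and P70 is 10 weeks of age. KO mice were homozygous for a frame-shifting removal of Katnal2 exon 3, made in every cell by treating embryos with a cell-permeable Cre after Flp had acted on an EUCOMM allele. The line had been backcrossed to C57BL/6J for over 5 generations, and WT and KO littermates shared cages. Weaning was at about P21, and whether the P21 mice had been weaned when their brains were taken is not given in the sources used here. Age and whatever went with it, such as diet or the day of harvest, cannot be told apart.

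Ketone bodies, mainly β-hydroxybutyrate and acetoacetate, are made by the liver from fatty acids and reach the brain in the blood. Suckling rodents live on fat-rich milk, and their brain draws on ketone bodies more than the adult brain, which runs mainly on glucose. Monocarboxylate transporters carry ketone bodies, lactate and pyruvate across membranes, Bdh1 turns β-hydroxybutyrate into acetoacetate, Oxct1 links acetoacetate to coenzyme A, and Acat1 splits the product into acetyl-CoA. Cpt1 enzymes act on long-chain acyl-CoA at the entry to mitochondrial fatty acid oxidation.

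The values are normalized counts, in which each mouse is scaled to the same overall level, and differences are on the scale log2(value + 1). The values of a mouse sum to between 27310500 and 28423000. The spacing of the low values could be read in 4 P21 and 8 P70 mice, and gave about 28000000 to 35000000 reads at P21 and 23000000 to 24000000 at P70. Both P70 mice of replicate 5, 1 WT and 1 KO, stood apart from the other 18: their mean Spearman correlation with all other mice was 0.977 and 0.983, against 0.989 to 0.991, and their longest and most AT-rich transcripts were low. The differences of the 7 genes between ages, and list counts that change, are therefore also given without them. Katnal2 had 107 ± 7.38 normalized counts in WT and 89.0 ± 8.72 in KO mice at P21, and 122 ± 16.4 and 105 ± 11.8 at P70 (mean ± SD, n = 5 each). Every KO value at P21 was under every WT value and the P70 groups overlapped, and these values for the whole gene do not measure the removed exon.

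Brains at P70 had less RNA than brains at P21 for 4 of the 7 genes, Slc16a1, Oxct1, Bdh1 and Cpt1a, and more for Cpt1c (limma with Benjamini-Hochberg adjustment over 17637 genes, mean of both genotypes). Among all genes tested, 12.8% were called lower at P70 and 12.6% higher. Without the replicate 5 mice 6 of the 7 were called, 5 lower and 1 higher, where 18.3% of all genes were called lower and 18.9% higher. The median difference of the 7 genes was -0.35 (P70 minus P21), and that of all genes was -0.01. As the 7 genes were chosen with earlier results of these data known, these counts and medians are descriptions. As the samples are whole brains, fewer cells of a type and less RNA per cell cannot be told apart.

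**Figure D1:**
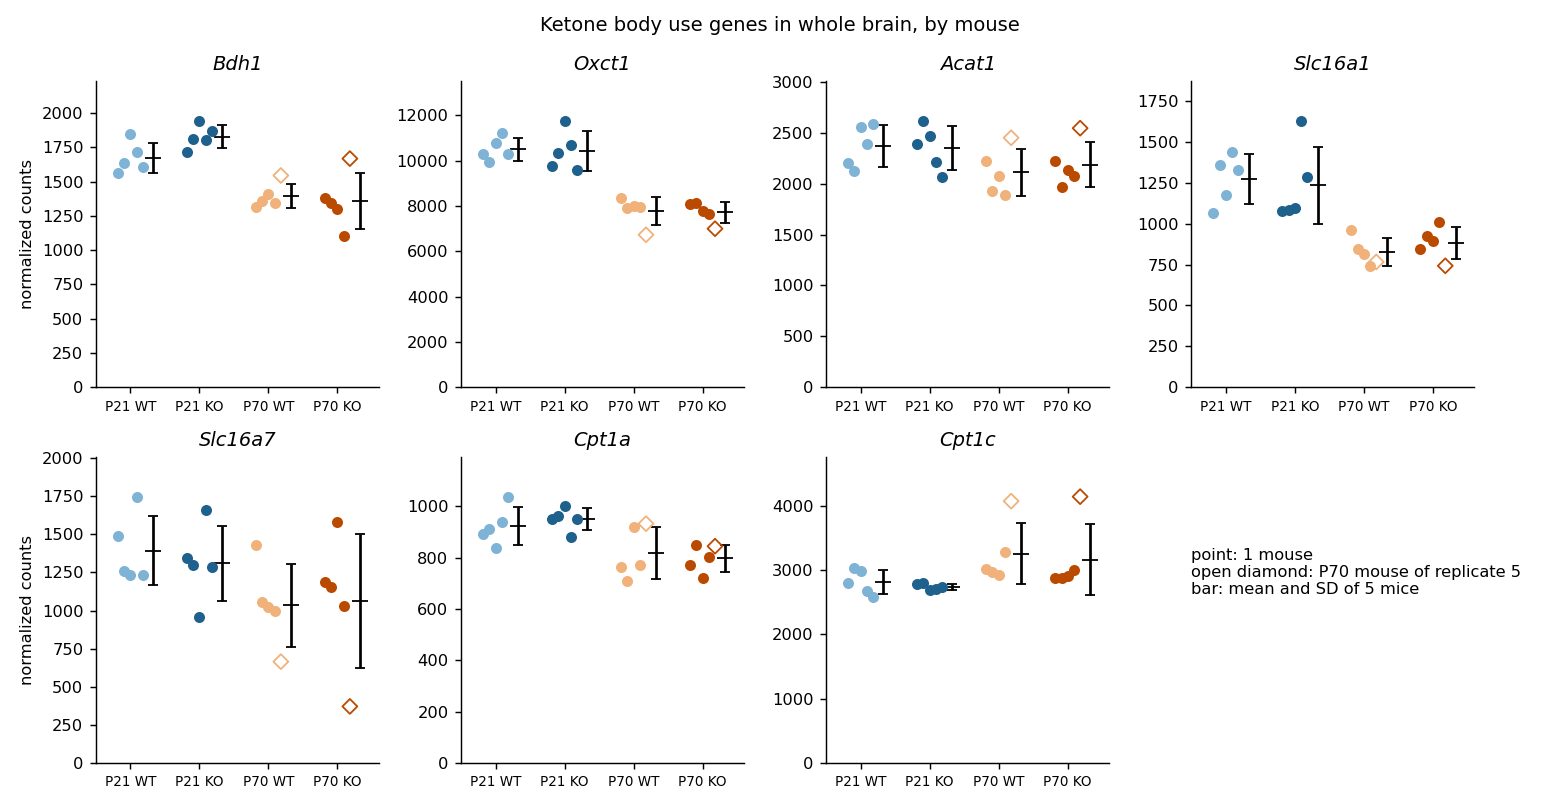
Normalized counts (vertical axes, from 0) of the 7 genes in each of the 4 groups; each point is 1 mouse, open diamonds are the P70 mice of replicate 5, and black bars are the mean and SD of 5 mice. All P70 points of Oxct1 and Slc16a1 lie below all P21 points, and the open diamonds are the highest P70 points of Cpt1c and the lowest of Slc16a7.

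Start regions of 5 of the 7 genes, the 250 bases before the annotated start (RefSeq, GRCm38.p6), were searched for short motifs on both strands. Acat1 and Slc16a7 were not matched. The motifs were AGGTCA (the half-site of nuclear receptors, among them the PPAR factors that fatty acids activate), AGGTCANAGGTCA (a pair of them), GGGCGG (GC box), CACGTG (E-box), CCAAT and TATAAA. The pair contains the half-site, and no motifs overlap otherwise in these sequences. Those of the transporter Slc16a1 (chr3:104638414-104638663, plus strand), of Oxct1 (chr15:4026178-4026427, plus strand) and of the paralogs Cpt1a (chr19:3323051-3323300, plus strand) and Cpt1c (chr7:44974852-44975101, minus strand) are shown, because 3 of them hold all the motifs found and Oxct1 holds none. Each is read 5′ to 3′ towards the gene, and capitals mark the motifs found on either strand.
Slc16a1: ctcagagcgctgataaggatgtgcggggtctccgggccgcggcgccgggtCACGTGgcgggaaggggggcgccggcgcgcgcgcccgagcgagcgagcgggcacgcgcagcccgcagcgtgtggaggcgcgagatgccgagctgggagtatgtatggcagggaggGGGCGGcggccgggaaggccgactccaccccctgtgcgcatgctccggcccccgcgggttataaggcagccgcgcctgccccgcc
Oxct1: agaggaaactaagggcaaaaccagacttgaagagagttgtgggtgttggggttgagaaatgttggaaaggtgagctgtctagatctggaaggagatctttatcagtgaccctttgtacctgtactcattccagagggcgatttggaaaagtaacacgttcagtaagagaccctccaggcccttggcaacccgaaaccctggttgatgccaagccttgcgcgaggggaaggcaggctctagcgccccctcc
Cpt1a: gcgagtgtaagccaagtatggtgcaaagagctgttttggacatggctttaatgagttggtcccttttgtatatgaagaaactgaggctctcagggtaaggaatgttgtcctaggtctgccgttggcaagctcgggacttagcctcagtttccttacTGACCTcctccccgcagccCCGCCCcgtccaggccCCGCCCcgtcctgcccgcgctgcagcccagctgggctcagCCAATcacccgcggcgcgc
Cpt1c: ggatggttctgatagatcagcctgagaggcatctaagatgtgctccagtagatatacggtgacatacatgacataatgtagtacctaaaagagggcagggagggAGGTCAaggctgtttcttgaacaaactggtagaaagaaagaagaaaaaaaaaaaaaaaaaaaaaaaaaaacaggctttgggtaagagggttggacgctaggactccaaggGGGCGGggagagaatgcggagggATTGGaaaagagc
The Slc16a1 sequence holds 1 E-box and 1 GC box, has 76.4% G and C and holds 37 CpG dinucleotides. Cpt1a has 1 half-site, 2 GC boxes and 1 CCAAT box, and Cpt1c has 1 of each. The 2 Bdh1 start regions (chr16:31422047-31422296 and chr16:31428503-31428752, plus strand) hold none of the motifs. Among 32851 start regions of the same length, AGGTCA is in 14.0%, GGGCGG in 32.7%, CACGTG in 6.02%, CCAAT in 33.8% and TATAAA in 12.4%, and AGGTCANAGGTCA in 0.0335%. Among the 6 regions of these genes the counts are 2, 3, 1, 2, 0 and 0 in that order. Across all regions the median content of G and C is 52.4%, against 52.0% in Oxct1, 59.6% in Cpt1a, 44.0% in Cpt1c, and 49.6% and 60.8% in Bdh1. These letters describe the sequence alone, and binding was not measured.

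Slc16a1 encodes MCT1, the transporter of endothelial cells and glia through which ketone bodies enter the brain (chr3:104638668-104658462, plus strand, GRCm38). Slc16a1 had at P21 1065, 1358, 1178, 1441 and 1328 normalized counts in WT mice of replicates 1 to 5 and 1075, 1085, 1096, 1629 and 1287 in KO mice. At P70 Slc16a1 had 962, 847, 816, 741 and 766 normalized counts in WT mice and 846, 924, 897, 1009.6 and 742 in KO mice. All 10 P70 mice lay below all 10 P21 mice, which was so for 480 of 17637 genes (2.72%). Slc16a1 RNA fell by 31.5% from P21 to P70, a log2 difference of -0.55 (standard error 0.08, adjusted p = 3.78e-05), the largest fall among the 7 genes. Without the replicate 5 mice the log2 difference was -0.50.

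Slc16a7 encodes MCT2, the high-affinity transporter found mainly on neurons (chr10:125219270-125389465, minus strand). Slc16a7 had at P21 1486, 1261, 1233, 1748 and 1233 normalized counts in WT mice of replicates 1 to 5 and 1342, 1302, 957, 1658 and 1289 in KO mice. At P70 Slc16a7 had 1429.9, 1058, 1026, 998 and 664 normalized counts in WT mice and 1184, 1152, 1582, 1031 and 370.3 in KO mice. Ages overlapped, with the KO mouse of replicate 5 lowest by far and the KO mouse of replicate 3 at P70 above most P21 mice. The log2 difference between ages was -0.44 (standard error 0.19, adjusted p = 0.1005), and -0.19 (adjusted p = 0.162) without the replicate 5 mice. With a correction for transcript length and GC content it was -0.39 with an adjusted p of 0.00613, and without the P70 KO mouse of replicate 3 it was -0.53 with an adjusted p of 0.0441, so its call turns on the processing and on single mice. Its annotated transcript, of 10981 bases with 37.7% G and C, is the longest of the 7 genes, and long AT-rich transcripts were low in both replicate 5 mice. Whether this bears on the Slc16a7 values of those mice was not tested.

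Bdh1 encodes the mitochondrial β-hydroxybutyrate dehydrogenase (chr16:31422280-31458901, plus strand). Bdh1 had at P21 1563, 1636, 1847, 1714 and 1605 normalized counts in WT mice of replicates 1 to 5 and 1716, 1809, 1943, 1804 and 1869 in KO mice. At P70 Bdh1 had 1316, 1358, 1411, 1345 and 1545 normalized counts in WT mice and 1380.0, 1341, 1302, 1100.0 and 1668 in KO mice. At P70, 9 of 10 mice lay below all P21 mice, the exception being the KO mouse of replicate 5. Within each genotype the ages did not overlap, and the share of all genes that separate within a genotype was not counted. Bdh1 RNA fell by 21.6% (log2 difference -0.35, standard error 0.06, adjusted p = 0.000138), and by 24.6% without the replicate 5 mice.

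Oxct1 encodes SCOT, the coenzyme A transferase that commits acetoacetate to oxidation and that the liver lacks (chr15:4026383-4155344, plus strand). Oxct1 had at P21 10297, 9924, 10785, 11223 and 10291 normalized counts in WT mice of replicates 1 to 5 and 9763, 10339, 11757, 10691 and 9590.5 in KO mice. At P70 Oxct1 had 8336, 7897, 7984, 7956 and 6729 normalized counts in WT mice and 8084, 8149, 7773, 7628 and 6998 in KO mice. Again no P70 mouse reached a P21 mouse, and both replicate 5 mice were the lowest of their groups. Oxct1 RNA fell by 25.9% (log2 difference -0.43, standard error 0.05, adjusted p = 8.26e-07), and by 23.7% without them.

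Acat1 encodes the mitochondrial acetoacetyl-CoA thiolase, which also serves isoleucine breakdown (chr9:53580522-53610382, minus strand). Acat1 had at P21 2207, 2124, 2563, 2388 and 2584 normalized counts in WT mice of replicates 1 to 5 and 2394, 2618, 2472, 2213 and 2068 in KO mice. At P70 Acat1 had 2224, 1928, 2075, 1889 and 2453 normalized counts in WT mice and 2221, 1964, 2137, 2075 and 2547 in KO mice. The ages overlapped, and both replicate 5 mice were the highest of their P70 groups. The log2 difference was -0.14 (standard error 0.06, adjusted p = 0.108), and -0.19 (adjusted p = 0.00586) without them. Leaving out either of these mice was enough to bring the adjusted p under 0.05 (0.0341 without the KO mouse, 0.0430 without the WT mouse). Of the 3 enzymes in the chain, the first and second thus fell in RNA on all mice, and the third passed the test in 3 of 31 alternative analyses, those without 1 or both of these mice.

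Cpt1a encodes the carnitine palmitoyltransferase of the outer mitochondrial membrane in most tissues (chr19:3322334-3385733, plus strand). Cpt1a had at P21 892, 911, 838, 938 and 1038 normalized counts in WT mice of replicates 1 to 5 and 952, 962, 1002, 882 and 950.1 in KO mice. At P70 Cpt1a had 764, 709, 921, 769 and 932 normalized counts in WT mice and 769.9, 850.4, 722, 801 and 845 in KO mice. The KO groups did not overlap between ages, and the share of all genes that separate in KO mice was not counted. In WT mice replicates 3 and 5 at P70 reached the P21 range. Cpt1a RNA fell by 13.9% (log2 difference -0.22, standard error 0.06, adjusted p = 0.00755), and by 15.9% without the replicate 5 mice.

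Cpt1c encodes the neuronal relative of Cpt1a, which sits in the endoplasmic reticulum and has little catalytic activity (chr7:44959372-44974851, minus strand). Cpt1c had at P21 2802, 3027, 2989.5, 2681 and 2584 normalized counts in WT mice of replicates 1 to 5 and 2782, 2794, 2686, 2713 and 2731 in KO mice. At P70 Cpt1c had 3024, 2975, 2928, 3290.0 and 4074 normalized counts in WT mice and 2883, 2884, 2912, 2995 and 4144 in KO mice. Both replicate 5 mice were far above the other P70 mice. Cpt1c RNA was 14.6% higher at P70 (log2 difference 0.20, standard error 0.07, adjusted p = 0.0380), but 7.49% higher (log2 difference 0.10, adjusted p = 0.0195) without them. The call was lost in 12 of 31 alternative analyses, with an adjusted p of 0.0788 under quantile normalization. Cpt1a and Cpt1c thus moved in opposite directions between ages. A non-coding gene on the opposite strand, 6530437J22Rik, overlaps 3875 bases of the span of Cpt1c, introns included. Other opposite-strand genes overlap the spans of Bdh1 (Gm15743, 1901 bases), Oxct1 (Gm15632 and BC037032, 2807 and 1023) and Slc16a7 (Gm45604 and Gm47862, 1768 and 927). On the same strand, Gm43581 and Gm43585 overlap 2864 and 1403 bases of Slc16a1. How much of these overlaps lies in exons was not counted. Reads from exons shared by opposite-strand genes cannot be told apart in a library that does not keep strand.

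**Figure D2:**
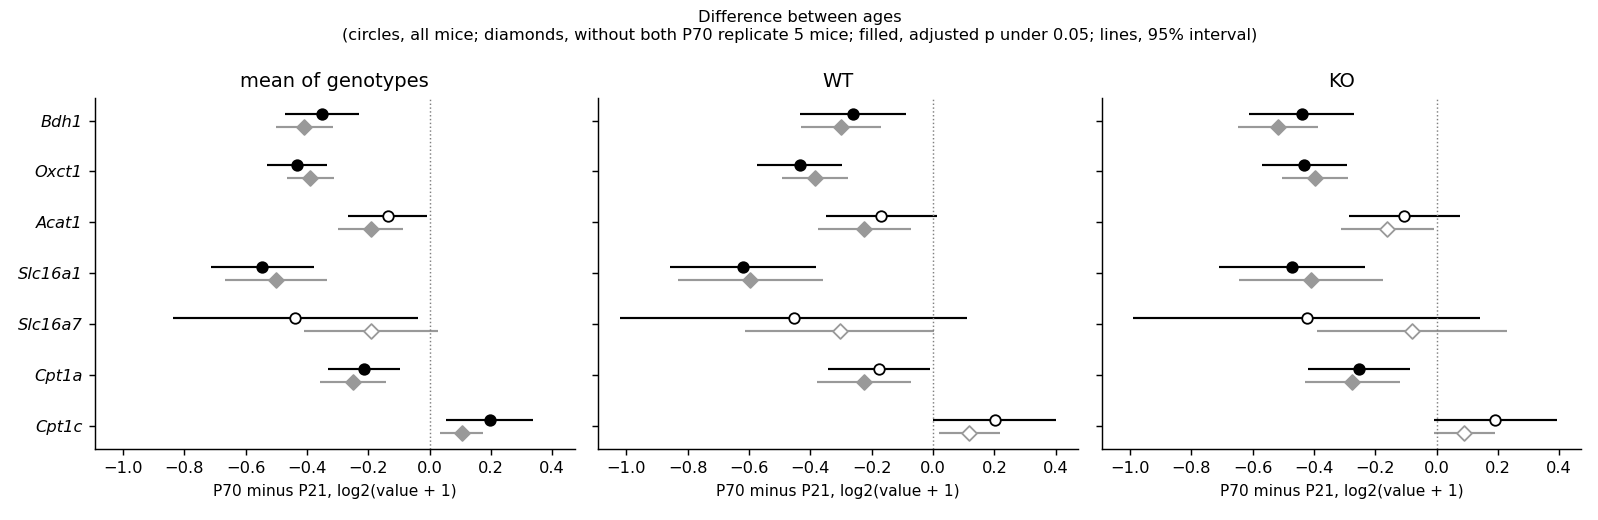
Difference between ages (horizontal axes, P70 minus P21 on the scale log2(value + 1)) for the mean of genotypes, WT and KO. Circles use all mice, grey diamonds leave out both P70 replicate 5 mice, lines are 95% intervals, and filled symbols have an adjusted p under 0.05; Slc16a1, Oxct1 and Bdh1 are filled and left of 0 in all panels.

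Within WT mice 3 genes fell between ages and none rose, where 5.62% of all genes were called lower and 5.53% higher. They were Slc16a1 (log2 difference -0.62, adjusted p = 0.00104), Oxct1 (-0.44, 0.000169) and Bdh1 (-0.26, 0.0447). The Bdh1 call in WT is close to the threshold and was lost in 17 of 32 alternative analyses. Without the replicate 5 mice Acat1 (-0.22, 0.0330) and Cpt1a (-0.23, 0.0343) were also called in WT, where 9.97% of all genes were then called lower and 11.2% higher. In KO mice 4 genes fell, where 6.4% of all genes were called lower and 5.47% higher: Bdh1 (log2 difference -0.44, adjusted p = 0.00116), Oxct1 (-0.43, 0.000160), Slc16a1 (-0.47, 0.00925) and Cpt1a (-0.25, 0.0423). The Cpt1a call in KO was lost in 12 of 32 alternatives. With both P70 mice of replicate 5 left out, 4 genes fell in KO mice, where 11.1% of all genes were called lower and 10.9% higher. With the medians of all mice made equal, 3 of the 7 genes fell in KO mice. There 932 of 17637 genes were called lower and 1272 higher. Of all genes called in KO mice 57.7% were then higher at P70, against 46.1% as the values were deposited.

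The age difference itself was not called as differing between KO and WT mice for any of the 7 genes, nor for any of 17637 genes (0.0% called by limma with Benjamini-Hochberg adjustment). At an unadjusted p under 0.05 there were 296 genes, or 1.68%. The lowest of the 7 interaction terms was that of Bdh1, -0.18 (95% interval -0.42 to 0.07, unadjusted p = 0.143), and -0.22 (-0.40 to -0.03, unadjusted p = 0.0230, adjusted p = 1.000) without the replicate 5 mice. The highest was that of Slc16a1, 0.15 (-0.19 to 0.49). For Oxct1 the term was 0.00 (-0.19 to 0.20), while that of Slc16a7 ran from -0.77 to 0.83, wide enough to hold large differences either way.

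Loss of Katnal2 gave no called difference in any of the 7 genes at either age. At P21 0.0% of 17610 genes were called by limma and 429 (2.44%) had an unadjusted p under 0.05, and at P70 0.0% of 17613 were called and 199 (1.13%) had one. Katnal2 itself was thus not called either. With DESeq2 and a limit on fold change, another test and threshold, the study reported small sets of genes differing between genotypes at both ages. At P21 the difference furthest from 0 was that of Bdh1, with 1673 ± 112 normalized counts in WT and 1828 ± 84.4 in KO mice (SD, n = 5 each), overlapping ranges, and a log2 difference (KO minus WT) of 0.13 (95% interval 0.01 to 0.25, unadjusted p = 0.0334, adjusted p = 1.000). The P21 intervals were -0.14 to 0.11 for Oxct1, -0.17 to 0.15 for Acat1, -0.31 to 0.19 for Slc16a1, -0.38 to 0.19 for Slc16a7, -0.09 to 0.18 for Cpt1a and -0.14 to 0.07 for Cpt1c. At P70 they were -0.27 to 0.18 for Bdh1, -0.17 to 0.15 for Oxct1, -0.15 to 0.26 for Acat1, -0.13 to 0.32 for Slc16a1, -0.24 to 0.18 for Cpt1a and -0.31 to 0.22 for Cpt1c. The P70 interval of Slc16a7 ran from -0.79 to 0.66, that is a change in KO mice of anything from -42.2% to 58.5%. All these intervals hold 0 except that of Bdh1 at P21, and they do not show that the genotypes are alike.

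**Figure D3:**
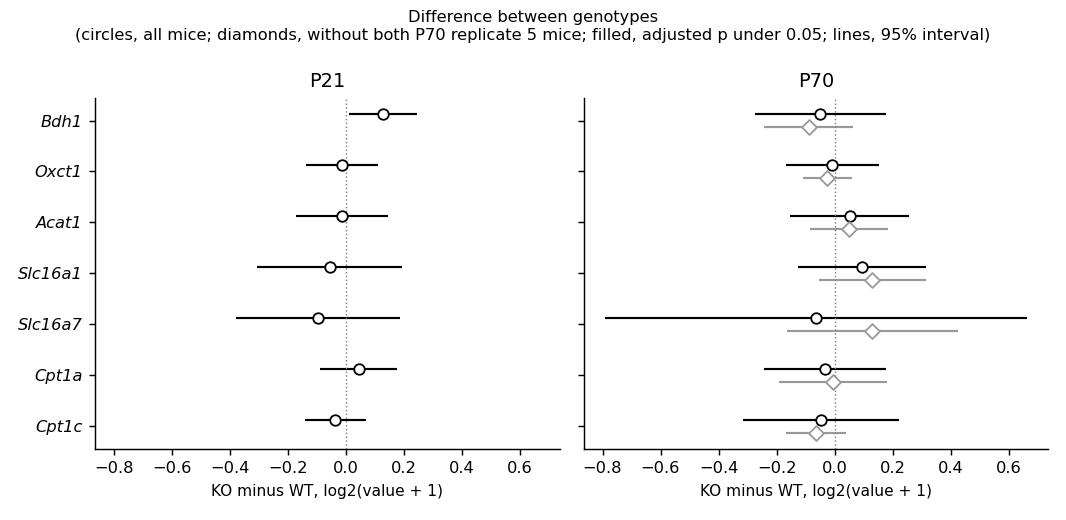
Difference between genotypes (horizontal axes, KO minus WT on the scale log2(value + 1)) at P21 and P70. Circles use all mice, grey diamonds leave out both P70 replicate 5 mice, and lines are 95% intervals; no symbol is filled, which would mark an adjusted p under 0.05, and the longest line is that of Slc16a7 at P70.

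Set per length of the longest transcript, Oxct1 was the most abundant of the 7 at both ages, with 2967 ± 190 normalized counts per kilobase at P21 and 2198 ± 145 at P70 (SD, n = 10 each). Cpt1c followed with 852 ± 42.1 at P21 and 985 ± 150 at P70 per kilobase, then Acat1 (694 ± 58.6 and 632 ± 63.7) and Bdh1 (554 ± 39.3 and 435 ± 47.5). Slc16a1 was at 283 ± 42.6 and 193 ± 20.9 per kilobase, and Cpt1a at 217 ± 13.6 and 187 ± 17.9. Slc16a7 was lowest, at 123 ± 20.8 and 95.6 ± 31.4 per kilobase. The ranges over mice of neighbours in this order overlapped for Acat1 and Bdh1 at P21 and for Slc16a1 and Cpt1a at P70, and not for the other neighbours. Per length of all exons together, Acat1 stood above Cpt1c at P21, at 629 against 496, so the order of that pair depends on the transcript taken.

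Genes around the 7 were followed in 8 further lists of 51 genes, of which 46 passed the limit on low values. Between ages 12 of the 46 fell (26.1%) and none rose, beside 12.8% lower and 12.6% higher among all genes, and without the replicate 5 mice 16 fell (34.8%) and 1 rose, beside 18.3% and 18.9%. The median difference of the 46 was -0.06. In WT mice 5 of the 46 fell (10.9%, beside 5.62% of all genes) and in KO mice 7 (15.2%, beside 6.4%). With those mice left out, 11 of the 46 fell in each genotype (23.9%), beside 9.97% of all genes in WT and 11.1% in KO mice, and 1 rose, in KO mice. Between genotypes 0 of the 46 were called at either age, with differences from -0.15 to 0.34 at P21 and from -0.30 to 0.26 at P70.

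The genes of 7 of these lists are described here. Their counts stand beside the shares of all genes, 12.8% lower on all mice and 18.3% without the replicate 5 mice, and are descriptions of small lists. Of 3 tested genes of other ketone body use 2 fell: Acat2, the cytosolic thiolase that feeds sterol synthesis, from 1407 ± 69.6 to 1029.9 ± 104 normalized counts from P21 to P70 (mean ± SD, n = 10 each, log2 difference -0.45, adjusted p = 2.46e-06), and Aacs, which activates acetoacetate in the cytosol for lipid synthesis, from 1814 ± 104 to 1339 ± 107 (-0.44, 1.38e-06). Bdh2 was at 0.40 (adjusted p = 0.117). Of the receptors Hcar1 was tested, at 0.24 (adjusted p = 0.280).

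Of 9 tested genes of monocarboxylate transport and lactate 2 fell, and without the replicate 5 mice 6 fell and 1 rose. Slc16a3, which encodes the lactate exporter MCT4, had a log2 difference of -0.64 (adjusted p = 0.00472), and Mpc1, a subunit of the mitochondrial pyruvate carrier, -0.19 (0.00438). Slc16a8, which encodes MCT3, was at -0.45 (adjusted p = 0.0877), and at -0.63 (0.00400) without the replicate 5 mice. Without them Bsg, a partner protein of MCT1, Ldha, the lactate dehydrogenase subunit of muscle type, and Mpc2, the other subunit of the pyruvate carrier, also fell, and Emb, a partner protein of MCT2, rose (log2 difference 0.19, adjusted p = 0.000304). Of 6 carnitine shuttle genes 1 fell, Crot, the peroxisomal carnitine octanoyltransferase (-0.14, 0.0482), with an adjusted p of 0.0681 without the replicate 5 mice. The carnitine transporter gene Slc22a5 (-0.11, 0.171) and Crat, the carnitine acetyltransferase (0.12, 0.233), did not pass.

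Of 14 genes of mitochondrial β-oxidation 3 fell and 11 did not pass, with a list median of 0.04, and without the replicate 5 mice 4 fell. Etfdh, which passes electrons from the acyl-CoA dehydrogenases to ubiquinone, had 826 ± 53.5 at P21 and 697 ± 15.1 at P70 normalized counts (log2 difference -0.24, adjusted p = 0.000173). Hadh and Hadha, the hydroxyacyl-CoA dehydrogenases of short and long chains, were at -0.26 (0.00609) and -0.14 (0.0179). None of 6 genes of malonyl-CoA and nuclear receptor control passed, and those with the smallest p were Ppargc1a (-0.16, adjusted p = 0.142), Acaca (-0.14, 0.158) and Ppara (-0.20, 0.468). Of 4 genes of glucose entry 3 fell: the glucose transporter genes Slc2a1 of endothelium and glia (-0.36, adjusted p = 0.0144) and Slc2a3 of neurons (-0.23, 0.00113), and Pdha1, a subunit of pyruvate dehydrogenase (-0.17, 0.0143).

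**Figure D4:**
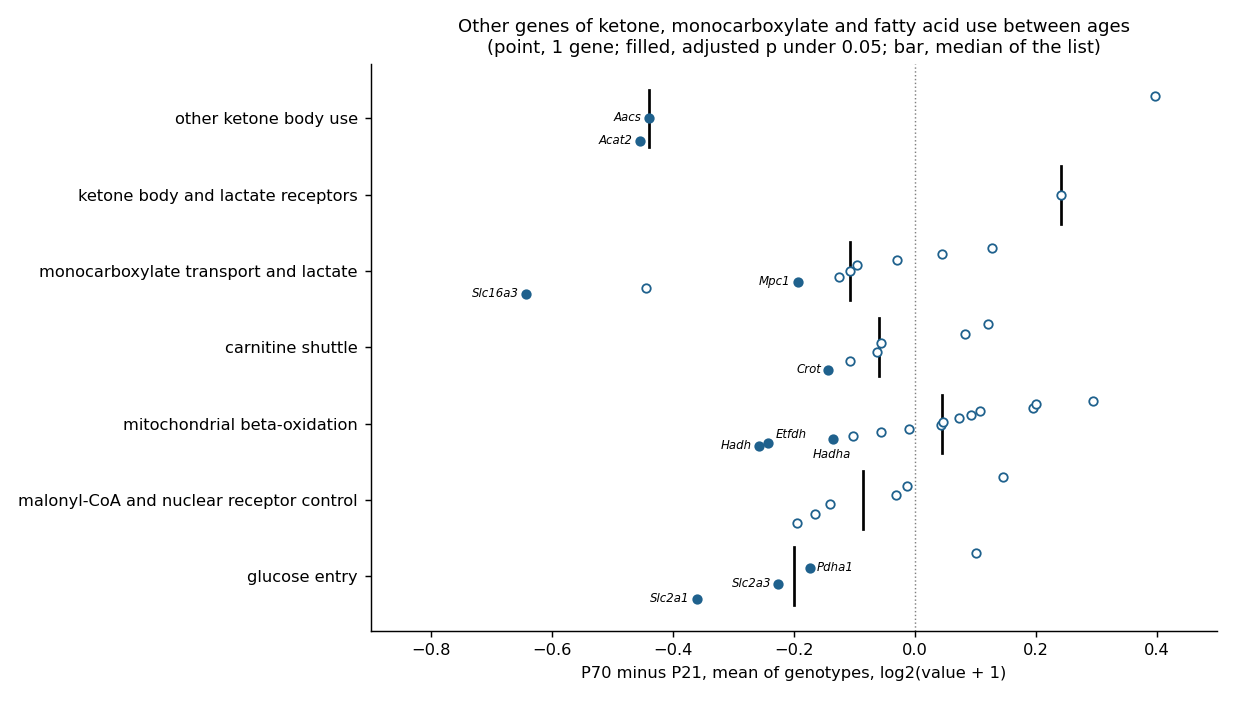
Difference between ages (horizontal axis, P70 minus P21 on the scale log2(value + 1), mean of genotypes) of 43 further genes in 7 lists. Each point is 1 gene, filled points with a name have an adjusted p under 0.05, and the bar is the median of its list; all 11 filled points lie left of 0.

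Markers of several cell types also moved between ages, and their part in the results above was not tested. The counts of all marker lists stand beside the shares of all genes, 12.8% lower and 12.6% higher on all mice. Without the replicate 5 mice these shares were 18.3% and 18.9%, and several counts of small lists are near them. All 12 oligodendrocyte markers fell, with a median of -1.20, among them Mbp (-1.22), which encodes myelin basic protein. Their summed level was 415160 to 608210 normalized counts at P21 and 158990 to 208984 at P70. Of 8 markers of oligodendrocyte precursors 6 fell (median -0.58), among them Pdgfra (-0.58) and Gpr17 (-1.30), and 7 fell without the replicate 5 mice. Slc16a1, which oligodendrocytes also carry, moved the same way as these lists, as did Oxct1, Bdh1 and Cpt1a. Whether these falls are linked was not tested.

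Of 14 endothelial markers 3 fell, Kdr (-0.98), Slco1a4 (-0.61) and Slco1c1 (-0.33), which encode the VEGF receptor 2 and organic anion transporters, while Cldn5 (-0.31, adjusted p = 0.156) and Pecam1 (-0.13, 0.161) did not pass, though both did without the replicate 5 mice (-0.49, 0.00350 and -0.16, 0.0412). The list median was -0.22, its sum was 7217 to 10329 at P21 and 6055 to 8450.2 at P70, and without the replicate 5 mice 9 fell and 1 rose. All 5 tested blood markers fell (median -1.47), among them Hba-a1 (-1.66) and Hbb-bs (-1.43), with a sum of 12083 to 61283 at P21 and 6986 to 13113 at P70.

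Of 13 neuronal markers 2 rose and 4 fell (median -0.04). Snap25 (0.27) and Gad1 (0.17) rose, and Stmn2 (-0.34), Syp (-0.18), Tubb3 (-0.18) and Slc17a7 (-0.17) fell. Rbfox3, at 0.10 (adjusted p = 0.135), did not pass. Of 12 astrocyte markers 2 fell (median -0.06), and neither Aqp4 at -0.30 (adjusted p = 0.109) nor Aldh1l1 at -0.05 (0.651) passed. Without the replicate 5 mice 2 neuronal markers rose and 6 fell, and 2 astrocyte markers rose and 4 fell, with Aqp4 at -0.10 (adjusted p = 0.134) and Aldh1l1 at -0.15 (0.0145). The neuronal sum was 258708 to 273700.0 at P21 and 260206 to 273867 at P70, with the lowest and the highest values of both ages close to each other. Of 9 mural markers 2 fell (median -0.14), of 10 microglial markers 1 fell (median 0.02), of 8 ependymal markers 2 rose (median 0.28), of 10 choroid plexus markers 4 rose and 1 fell (median 0.30), of 8 meningeal markers 1 rose and 3 fell (median -0.08) and of 5 tested pituitary markers 1 fell (median 0.46). Without the replicate 5 mice 5 mural and 2 microglial markers fell (medians -0.20 and -0.01) and 1 ependymal marker rose (median 0.13), while the counts of the choroid plexus, meningeal and pituitary lists were the same. Of the liver markers Ttr alone was tested, which the choroid plexus also makes (0.19, adjusted p = 0.393), and Apoa1 was at means of 5.46 and 5.95 normalized counts.

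**Figure D5:**
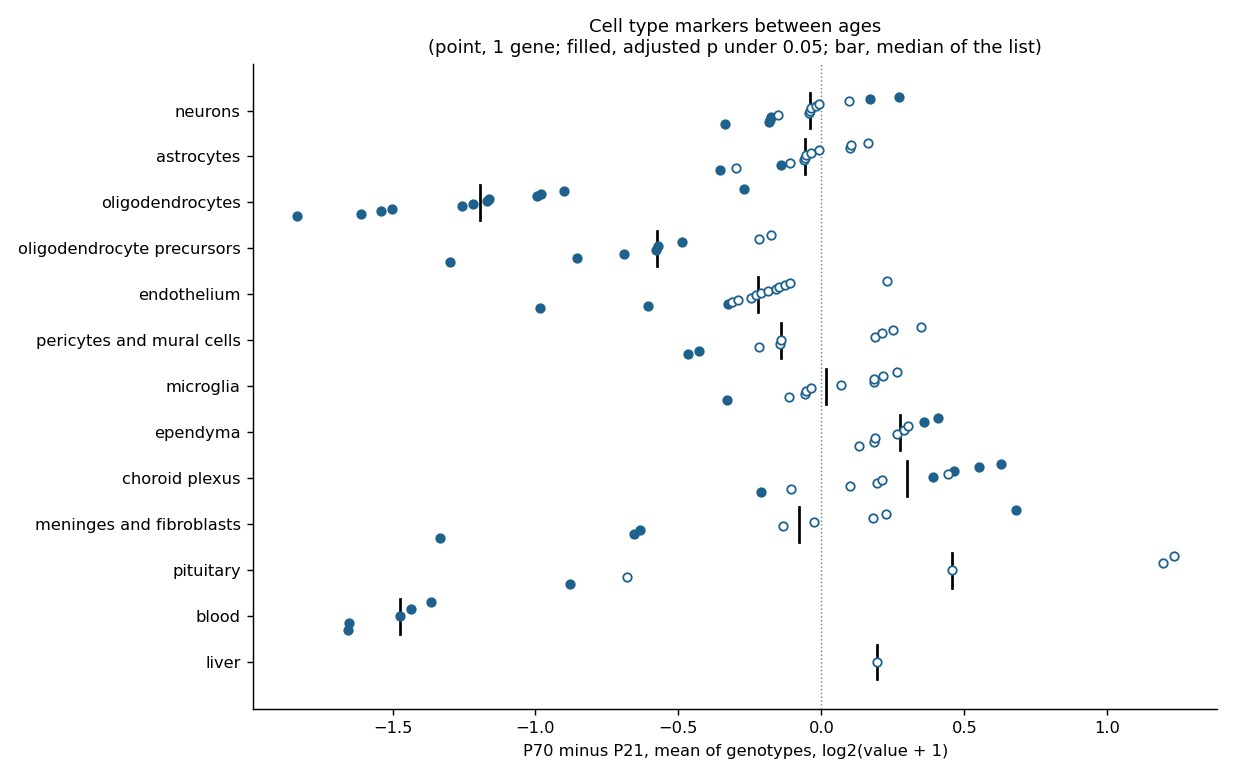
Difference between ages (horizontal axis, P70 minus P21 on the scale log2(value + 1), mean of genotypes) of cell type markers in 13 lists. Each point is 1 gene, filled points have an adjusted p under 0.05, and the bar is the median of its list; the oligodendrocyte and blood lists lie furthest to the left.

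Across mice, the genes most like each member were found from deviations from the 4 group means over 20 mice, given as Pearson's r over 20 mice and, after it, over the 18 mice other than both P70 mice of replicate 5. These describe mice that share group, depth and processing. Slc16a1 went most closely with the endothelial genes Cd93 (0.79 and 0.75) and Kdr (0.79 and 0.86). Oxct1 went with Nudt4 (0.93 and 0.89) and Papss1 (0.93 and 0.85), Bdh1 with Coq8a (0.89 and 0.74) and Ube2d-ps (0.88 and 0.73), and Acat1 with Akr1b10 (0.93 and 0.90) and Mpdu1 (0.87 and 0.80). Slc16a7 went with Mospd2 (0.93 and 0.81) and Rasa2 (0.93 and 0.67), Cpt1a with Gpr146 (0.83 and 0.77) and Sgk2 (0.81 and 0.78), and Cpt1c with Rogdi (0.97 and 0.80) and Slc27a1 (0.97 and 0.77). Among the 7 genes themselves, Slc16a7 and Cpt1c had an r of -0.81, which was -0.19 without the replicate 5 mice, and Bdh1 and Oxct1 went from -0.21 to 0.49. The tie of Slc16a7 with Cpt1c thus rests on those 2 mice.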

How the data were processed

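RNA of 20 whole mouse brains was sequenced by the authors from poly-A libraries that do not keep strand. Per the labels, the authors used Salmon 1.1.0 against GRCm38, with R 3.6.2 and DESeq2 1.26.0, while the study's methods name other versions of R and DESeq2 and add tximport and Salmon's correction for GC bias. The deposited signal values are normalized counts per gene. They are not whole reads and carry gene-specific factors, so limma took the place of the count test that the study used.

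Ensembl IDs were matched to GENCODE M21 symbols (19447 of 19463). After adding 1 to each value and taking log2, genes whose mean value reached 10 were fitted with limma 3.58.1 under R 4.3.3, with variances moderated along a trend on intensity. P-values were two-sided, adjusted by Benjamini-Hochberg over every gene tested, and called under 0.05. Age contrasts and the interaction came from 1 fit of 20 mice, and KO against WT from each age alone. The pseudocount understates changes of low genes. The fits and the depth estimate were tested on simulated data. Depth is given to 2 digits for the 4 P21 and 8 P70 mice in which the spacing of low values was clear. That limit was set after the first test on simulated data missed its tolerance elsewhere, and after the real mice were seen.

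Named were the 7 genes, up to 3 genes with the smallest p of each further list, up to 2 defining markers of a marker list, and the 2 genes most like each of the 7. Named in addition were the 3 endothelial markers that fell and the neuronal markers called other than Snap25. So were the 4 further monocarboxylate genes called without the replicate 5 mice, Apoa1 and the genes that overlap members of the 7. These additions were made after values were seen. The 7 genes and all lists were chosen with earlier results of these data known, and counts over them are descriptions. Cspg4 is in the precursor and the mural list, and Ttr in the choroid plexus and the liver list. Alternatives were no trend, 2 other scalings, pseudocounts of 0.5 and 5, no filter and a mean of 50, the replicate block, a length and GC correction, other sets of mice in the fit, and each mouse left out. Leaving out both P70 mice of replicate 5 was added after seeing the data. The genes of 1 further list, and 1 marker gene, are not reported here.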

Additional observations from a re-analysis of the deposited data

Results flagged for a closer look

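Among 28 groups of 5 mice (7 genes in 4 groups), 2 held a mouse far from the others of its group, by a gap of over 0.71 of the group's whole range. Oxct1 in the WT mouse of replicate 5 at P70 was at 6728.9 normalized counts, with a gap of 0.727 of the range. Cpt1c in the KO mouse of replicate 5 at P70 was at 4144.4 normalized counts, with a gap of 0.912 of the range. Chance marks about 1 in 20 groups in this way. These are the mice that stood apart over all genes. Deviations were taken from the mean of the other mice of the same age, both genotypes together and without the P70 replicate 5 mice. In the tenth of transcripts lowest in GC content the median deviation was -0.60 in the KO and -0.49 in the WT mouse of replicate 5. The other 18 mice lay between -0.08 and 0.07. The differences of Oxct1 and Cpt1c between ages are given with and without the replicate 5 mice in the report.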

How the results depend on the processing

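Over the alternatives, 4 to 6 of the 7 genes were called between ages for the mean of genotypes (5 as reported), 3 to 5 in KO (4 as reported) and 2 to 5 in WT mice, and none in the interaction or between genotypes. In WT mice 3 were called as reported and 5 without both P70 replicate 5 mice. Slc16a1 and Oxct1 were called lower at P70 in all 31 alternatives for the mean of genotypes and in all 32 within each genotype, as was Bdh1 for the mean and in KO mice. The Bdh1 call in WT was lost in 17 of 32, with differences from -0.30 to -0.23. Among further genes 11 to 18 of 46 were called, where 12 were reported. All these ranges are over alternatives in which the share of all genes called between ages also changed. Over all genes, calls between ages for the mean of genotypes rose from 4478 of 17637 to 6575 of 17652 without both replicate 5 mice. With the length and GC correction they rose to 6052 of 17637. In both settings 6 of the 7 genes were called, so that count stands there beside a larger share of all genes. Calls over all genes within genotypes rose from 1966 in WT and 2094 in KO to 3731 and 3879 without both replicate 5 mice. They were 3225 and 3336 with the length and GC correction. Between genotypes 1 gene, none of the 7, was called at P21 with that correction and 1 at P70 without both replicate 5 mice, where 0 were called on all mice without it. The cause was not tested.

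Between genotypes no call was made, so the sign of a small difference carried little. The KO minus WT difference of Oxct1 at P70, -0.01 as reported, was 0.0105 under quantile normalization and 0.0023 with the length and GC correction, with or without the replicate block, and that of Slc16a7 at P70 was 0.13 without both replicate 5 mice. Leaving out each mouse in turn, differences at P70 ran from -0.126 to 0.0236 for Bdh1, -0.0598 to 0.0268 for Oxct1, -0.0046 to 0.11 for Acat1, -0.24 to 0.28 for Slc16a7, -0.0824 to 0.0164 for Cpt1a and -0.148 to 0.0367 for Cpt1c. At P21 they ran from -0.0572 to 0.0162 for Oxct1, -0.0526 to 0.0325 for Acat1 and -0.186 to 0.0118 for Slc16a7.

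Same-numbered mice are different animals, and their deviations correlated by -0.01 to 0.26 at P21 and 0.07 to 0.71 at P70 between genotypes, and by -0.12 to 0.16 between ages. Not every pair was over 0.1 in any comparison (4 of 5 between genotypes at P70), so the fits reported have no block. Between genotypes at P70, 7 of 10 mice correlated best with the mouse of their own number. The correlation of 0.71 there was that of the replicate 5 mice, and the other pairs were at 0.07 to 0.17. The block raised genes with an unadjusted limma p under 0.05 at P70 from 199 to 610, with 0 called after adjustment. Leaving out both replicate 5 mice raised them to 651, with 1 called. The design does not say that the numbers pair mice, and whether they do was not tested. With the replicate block 5 of the 7 genes were called between ages, 3 in WT and 4 in KO mice, the counts reported without it, and 13 of the further genes. With the block calls over all genes rose from 4478 to 4977 between ages. Depth could not be read in 8 mice, and Slc16a7, whose P70 values spread most, is the gene these data resolve least.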
